A study of Rattus norvegicus with 8 samples.

Results

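The antioxidant and haem-degrading enzymes are 10 genes, Hmox1, Gpx1, Nqo1, Sod1, Sod2, Cat, Gclc, Gclm, Txn1 and Prdx6, of 14217 genes named on the rat array. A probe set, the group of short probes that reads 1 transcript, was taken when the array annotation gave it a single symbol among these genes. All 10 genes had at least 1 such probe set, 11 in all (2 for Gclc), of 31042 on the array. The tissue was the basolateral amygdala, its lateral and basal nuclei, on the electrode's side, isolated from rat brain sections by laser microdissection. The 8 arrays formed 4 groups of 2, lettered A and B in the labels, and the amplified RNA on an array was a pool of 2 rats out of a group's 4. Control rats carried the electrode and were not stimulated. Epileptogenic rats were stimulated in the amygdala, went through status epilepticus, a prolonged seizure, with 40 HAFDs or more (a term the labels do not spell out) in its opening 3 h, and showed no spontaneous seizures during the study. All rats were habituated to the apparatus in 5 sessions from day 5 and trained on day 8 after stimulation in 2 trials. In paired training a tone (75 dB, 20 s) ended together with a footshock (1.5 mA, 1 s), and in unpaired training the shock came before the tone. Tissue was taken 3 h later, so that every array, control arrays included, comes from rats that had recently been shocked. The groups thus cross control or epileptogenic with unpaired or paired. Strain, age and sex were not used here.

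Reactive oxygen species are by-products of respiration and weapons of phagocytes, and their formation rises during prolonged seizures. Superoxide is converted to hydrogen peroxide by superoxide dismutases, and the peroxide is then removed by catalase, by glutathione peroxidases that use the tripeptide glutathione, and by peroxiredoxins. Haem set free from damaged cells is split by haem oxygenase into biliverdin, carbon monoxide and iron. Many of these genes are controlled by Nrf2, the transcription factor encoded by Nfe2l2, which binds antioxidant response elements in DNA and is held back by Keap1. In the brain, glia carry much of the glutathione defence.

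The regions around the transcription starts were read for letters that match such an element. A match does not show binding, which was not tested, and elements further from the start were not searched for. RefSeq windows of the GRCr8 build, from 250 bases before to 50 after the start, matched 8 of the 10 genes, all but Hmox1 and Prdx6. They were searched on both strands for the core of the antioxidant response element, TGACNNNGC, and for the AP-1 site, TGANTCA; the motifs can share bases, so that 1 stretch may match both. The antioxidant core stood in 2 of the 8 windows, those of Gclm and Sod2, and in 12.1% of all 33469 windows of the table. The AP-1 site stood in 0 of 8 and in 7.33% of all. The windows of Gclm (chr2:213031885-213032184, plus strand) and Sod2 (chr1:50050119-50050418, minus strand) are given with the match in capitals, read on the opposite strand to the gene and beginning at -172 and -35 from the start. Those of Gpx1 (chr8:117905212-117905511, plus strand) and Nqo1 (chr19:52220218-52220517, minus strand) hold no match in these 300 bases and are shown because these genes had the larger differences described next. All run 5′ to 3′ along the gene.
Gclm: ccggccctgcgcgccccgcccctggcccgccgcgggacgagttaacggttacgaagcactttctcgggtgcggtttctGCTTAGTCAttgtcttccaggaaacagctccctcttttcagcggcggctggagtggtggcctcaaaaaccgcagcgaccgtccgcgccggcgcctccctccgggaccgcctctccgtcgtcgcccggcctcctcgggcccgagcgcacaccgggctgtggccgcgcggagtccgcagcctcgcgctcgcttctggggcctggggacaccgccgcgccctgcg
Sod2: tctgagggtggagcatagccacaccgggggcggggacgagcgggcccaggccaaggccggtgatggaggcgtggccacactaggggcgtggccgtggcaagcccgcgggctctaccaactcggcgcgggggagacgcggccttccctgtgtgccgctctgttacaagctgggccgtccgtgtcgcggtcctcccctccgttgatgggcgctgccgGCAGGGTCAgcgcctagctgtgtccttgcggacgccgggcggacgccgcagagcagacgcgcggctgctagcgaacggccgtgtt
Gpx1: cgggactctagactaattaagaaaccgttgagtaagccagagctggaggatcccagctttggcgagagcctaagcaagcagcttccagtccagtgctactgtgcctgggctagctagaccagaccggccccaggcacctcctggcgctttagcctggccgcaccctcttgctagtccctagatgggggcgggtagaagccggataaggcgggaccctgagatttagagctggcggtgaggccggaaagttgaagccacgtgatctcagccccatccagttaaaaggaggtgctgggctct
Nqo1: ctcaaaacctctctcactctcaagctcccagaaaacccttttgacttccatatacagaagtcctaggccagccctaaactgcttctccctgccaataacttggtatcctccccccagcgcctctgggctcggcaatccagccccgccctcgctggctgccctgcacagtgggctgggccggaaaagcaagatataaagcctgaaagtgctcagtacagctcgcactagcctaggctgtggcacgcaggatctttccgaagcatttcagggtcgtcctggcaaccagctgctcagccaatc

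Values are the log2 of the deposited signal, and probe sets with a mean log2 signal above 4.35 (a signal of 20.3) were tested. That held for 10 of the 11 probe sets of these enzymes and for 18625 on the array. A gene was read by its brightest probe set. Median signals of the 8 arrays ranged from 29.0 to 43.2. Of 9 markers of excitatory neurons with a probe set, 8 were above the filter level. That list includes the general neuron markers Rbfox3 and Snap25. Of 9 markers of striatal and central amygdala neurons, 8 were above the filter level too, and whether these came from neighbouring tissue was not tested. The number of arrays limits the precision, and the p-values measure the spread between arrays of pooled rats.

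**Figure D1:**
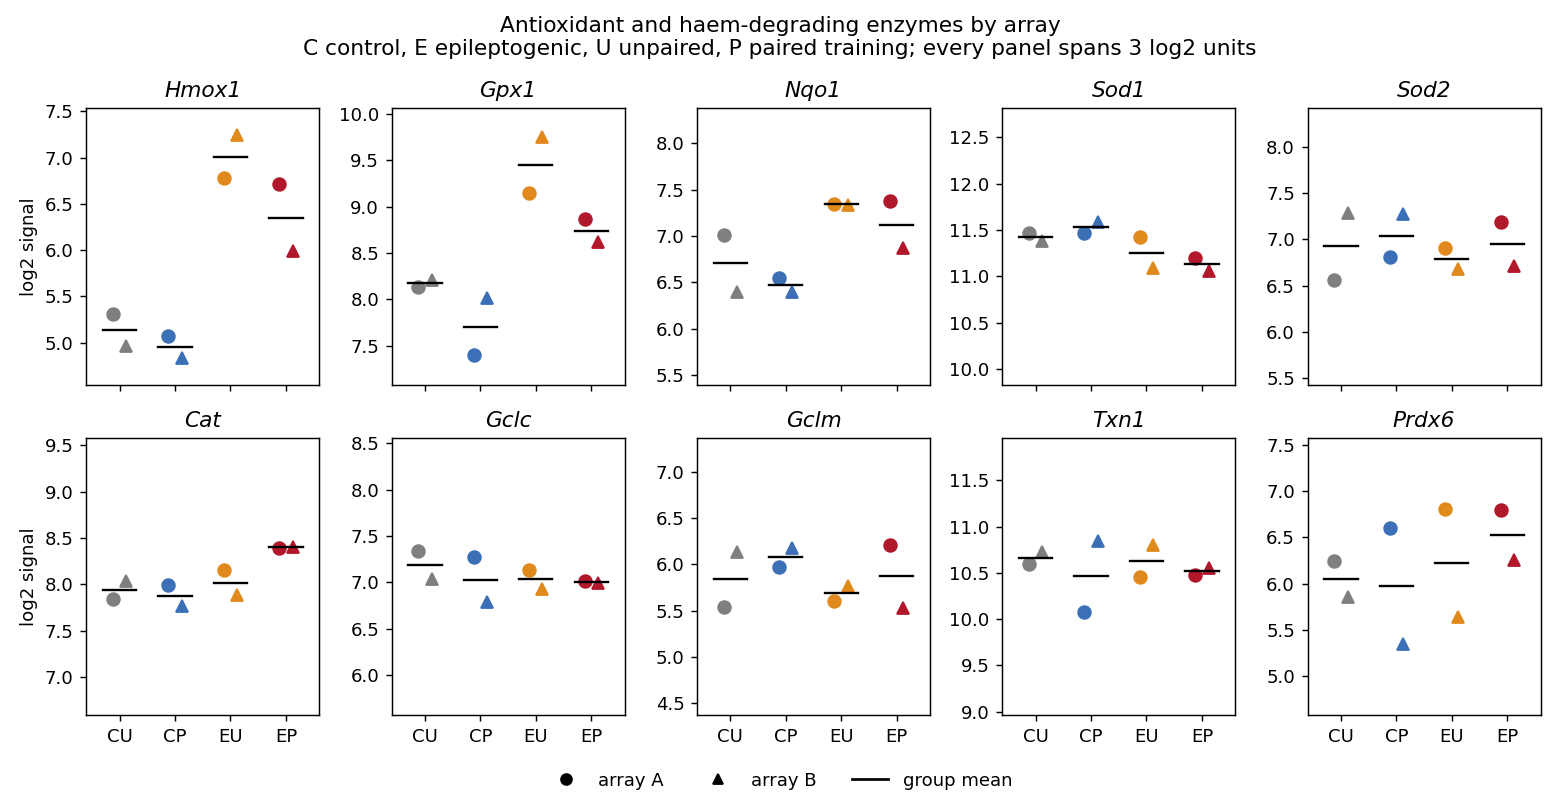
Log2 signal (vertical axes, each spanning 3 log2 units) of the 10 enzyme genes on the 8 arrays, by group (C control, E epileptogenic, U unpaired, P paired); circles are arrays A, triangles arrays B and bars group means. All 4 epileptogenic arrays lie above all 4 control arrays for Hmox1 and Gpx1, whereas the groups overlap for the other 8 genes.

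The comparison of epileptogenic with control rats asks how these enzymes differ on day 8 after status epilepticus. The haem-degrading enzyme gene Hmox1 rose 3.11-fold and the peroxide-removing enzyme gene Gpx1 rose 2.23-fold in epileptogenic arrays. The other 8 genes did not pass the test, with log2 differences between -0.28 (Sod1) and 0.64 (Nqo1). Thus 2 of 10 genes were higher and 0 lower at an adjusted p under 0.05 in limma, a linear model fitted to all tested probe sets. Of all tested probe sets 2.81% were higher (523 of 18625) and 0.827% lower. With the replicate letter as a block, which takes out a shared difference between A and B arrays, Nqo1 was higher too, which made 3 of 10, against 7.58% of all probe sets higher and 8.65% lower. The median log2 difference of the 10 genes was 0.16, and that of all tested probe sets was -0.11.

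**Figure D2:**
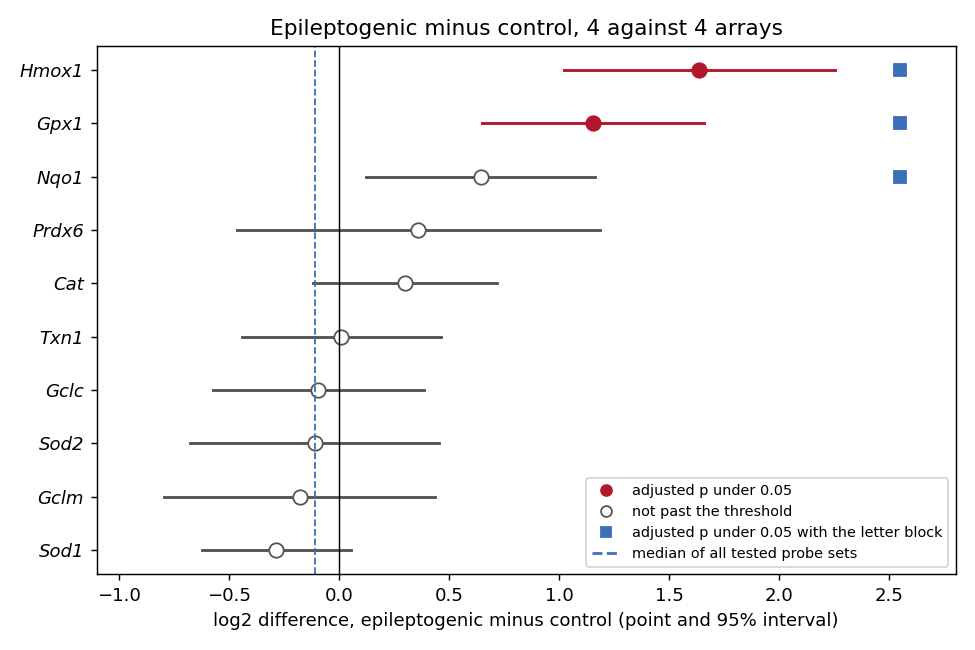
Log2 difference between the 4 epileptogenic and the 4 control arrays (horizontal axis) for each gene, as point and 95% interval from limma; filled points passed at an adjusted p under 0.05, squares mark genes that passed with the letter block, and the dashed line is the median of all tested probe sets (-0.11). Hmox1 (1.64) and Gpx1 (1.16) stand apart from the other 8 genes, of which Nqo1 (0.64) alone has an interval above 0.

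Hmox1 encodes haem oxygenase 1, the inducible enzyme that opens the haem ring. Its log2 signal was 5.31 and 4.96 in control unpaired arrays A and B, 5.07 and 4.84 in control paired, 6.78 and 7.24 in epileptogenic unpaired, and 6.71 and 5.99 in epileptogenic paired arrays. The 4 control arrays lay close together, and each epileptogenic array was above all of them; epileptogenic paired B was the lowest of the epileptogenic arrays. The means were 6.68 ± 0.52 (SD, n = 4) and 5.04 ± 0.20 (SD, n = 4). The log2 difference was 1.64 ± 0.27 (SE; limma adjusted p = 0.0152), with a 95% interval on the fold of 2.03 to 4.77. The difference was 1.56 within the A arrays and 1.72 within the B arrays. The control mean was a signal of 33.0, beside a filter level of 20.3. With 16 added to the signal the log2 difference was 1.28 (adjusted p = 0.0134 in limma), the lowest of the 18 alternatives. The call was lost without epileptogenic unpaired B (1.52, adjusted p = 0.0779) and without epileptogenic paired A (1.46, adjusted p = 0.0624), while the adjusted p over all 18 alternatives ran from 0.00240 to 0.0779. In tissue RNA, more cells that express a gene and more RNA per cell cannot be told apart.

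Gpx1 encodes the cytosolic glutathione peroxidase, a selenium enzyme that reduces hydrogen peroxide. Its log2 signal was 8.13 and 8.21 in control unpaired arrays A and B, 7.39 and 8.02 in control paired, 9.15 and 9.75 in epileptogenic unpaired, and 8.87 and 8.61 in epileptogenic paired arrays. The epileptogenic unpaired arrays were the highest and control paired A the lowest, and the epileptogenic and control arrays did not overlap. The means were 9.09 ± 0.49 (SD, n = 4) and 7.94 ± 0.37 (SD, n = 4). The log2 difference was 1.16 ± 0.22 (SE; limma adjusted p = 0.0254), with a 95% interval on the fold of 1.57 to 3.16. Gpx1 passed in 9 of the 18 alternatives. Its call was lost with median centring (1.26, adjusted p = 0.0839 in limma) and with no intensity trend (adjusted p = 0.0700 in limma). With single arrays left out the call was kept in 2 of 8 fits, those without control paired B (1.31) or epileptogenic unpaired A (1.31), and was lost without any of the other 6 arrays. The log2 difference was lowest without control paired A (1.00, adjusted p = 0.0981), and over all 18 alternatives the adjusted p ran from 0.00218 to 0.0987. Hmox1 and Gpx1 were also the 2 genes of the 10 whose epileptogenic arrays all exceeded the control arrays, which 7.29% of tested probe sets did (1358), and 0 of the 10 lay below, against 7.77%.

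Nqo1 encodes a quinone reductase and is a classical Nrf2 target. Its log2 signal was 7.01 and 6.40 in control unpaired arrays A and B, 6.55 and 6.40 in control paired, 7.35 and 7.34 in epileptogenic unpaired, and 7.38 and 6.87 in epileptogenic paired arrays. In 3 of 4 epileptogenic arrays it was above every control array, and epileptogenic paired B was below control unpaired A. The log2 difference was 0.64 ± 0.23 (SE; limma adjusted p = 0.175), a 1.56-fold difference with a 95% interval of 1.09 to 2.24 that takes no account of the other probe sets tested. With the letter block the same difference passed (adjusted p = 0.0336). Among the 18 alternatives this was the only fit in which it did, and the highest adjusted p was 0.388.

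The remaining peroxide-removing enzymes had smaller positive differences. Cat encodes catalase, the peroxisomal enzyme that splits hydrogen peroxide. For Cat the log2 signal was 7.84 and 8.03 in control unpaired arrays A and B, 7.99 and 7.76 in control paired, 8.15 and 7.88 in epileptogenic unpaired, and 8.40 and 8.41 in epileptogenic paired arrays. The epileptogenic paired arrays were the highest, and epileptogenic unpaired B lay inside the control range. The log2 difference was 0.30 ± 0.19 (SE; adjusted p = 0.430 in limma), with a 95% interval of -0.12 to 0.72.

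Prdx6 encodes a peroxiredoxin that also acts on oxidised phospholipids. For Prdx6 the log2 signal was 6.24 and 5.86 in control unpaired arrays A and B, 6.60 and 5.35 in control paired, 6.81 and 5.64 in epileptogenic unpaired, and 6.80 and 6.25 in epileptogenic paired arrays. Array A was above array B in all 4 groups, by 0.38 to 1.25 in log2 signal, and the epileptogenic and control arrays overlapped. The log2 difference between epileptogenic and control arrays was 0.36 ± 0.37 (SE; adjusted p = 0.654 in limma), with a 95% interval of -0.46 to 1.18. The letters also differed in a measure of RNA quality. The excess of the 3′ over the 5′ control probe set of beta-actin was 1.87 to 3.63 (log2) in A arrays and 3.82 to 4.45 in B arrays, although that of GAPDH overlapped between the letters (3.35 to 4.19 and 3.09 to 3.69). The part of RNA quality in the values of Prdx6 was not tested.

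The superoxide dismutases did not pass. Sod1 encodes the cytosolic copper and zinc enzyme. For Sod1 the log2 signal was 11.46 and 11.38 in control unpaired arrays A and B, 11.47 and 11.59 in control paired, 11.42 and 11.09 in epileptogenic unpaired, and 11.20 and 11.06 in epileptogenic paired arrays. It was lower than every control array in 3 of 4 epileptogenic arrays, and epileptogenic unpaired A lay inside the control range. The log2 difference was -0.28 ± 0.15 (SE; adjusted p = 0.356, 0.106 with the block, in limma), with a 95% interval of -0.62 to 0.05. Sod2 encodes the manganese enzyme of mitochondria. For Sod2 the log2 signal was 6.56 and 7.28 in control unpaired arrays A and B, 6.81 and 7.27 in control paired, 6.91 and 6.68 in epileptogenic unpaired, and 7.18 and 6.71 in epileptogenic paired arrays. The groups overlapped, and among control arrays B was higher than A, and among epileptogenic arrays A was higher than B. The log2 difference was -0.11 ± 0.25 (SE; adjusted p = 0.862 in limma), with a 95% interval of -0.68 to 0.46, and its sign was positive within the A arrays (0.36).

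Glutathione is made in steps whose rate-limiting enzyme, glutamate-cysteine ligase, has a catalytic subunit, Gclc, and a modifier subunit, Gclm. The brighter probe set of Gclc had log2 signals of 7.34 and 7.04 in control unpaired arrays A and B, 7.27 and 6.78 in control paired, 7.14 and 6.92 in epileptogenic unpaired, and 7.01 and 6.99 in epileptogenic paired arrays. The 4 epileptogenic arrays lay inside the control range, and the log2 difference was -0.09 ± 0.21 (SE; adjusted p = 0.861 in limma; 95% interval -0.57 to 0.39). The other probe set of Gclc was under the filter level on every array, between 0.10 and 3.62, and was not tested. Gclm, whose window holds the antioxidant core shown above, had log2 signals of 5.54 and 6.14 in control unpaired arrays A and B, 5.97 and 6.18 in control paired, 5.61 and 5.77 in epileptogenic unpaired, and 6.21 and 5.53 in epileptogenic paired arrays. Both the highest and the lowest value were in epileptogenic paired arrays, and the log2 difference was -0.18 ± 0.27 (SE; adjusted p = 0.782 in limma; 95% interval -0.79 to 0.44).

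Txn1 encodes thioredoxin, a small protein that reduces disulfides and recharges peroxiredoxins. For Txn1 the log2 signal was 10.60 and 10.72 in control unpaired arrays A and B, 10.08 and 10.84 in control paired, 10.45 and 10.80 in epileptogenic unpaired, and 10.47 and 10.56 in epileptogenic paired arrays. All epileptogenic arrays lay inside the control range, which control paired A widened downward. The log2 difference was 0.01 ± 0.20 (SE; adjusted p = 0.986 in limma), with a 95% interval of -0.44 to 0.46. For none of the 8 genes that did not pass does the missed threshold show that the groups were alike; each gene's own interval gives the differences its arrays allow.

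The comparison of paired with unpaired training asks whether coupling of tone and shock went with a difference 3 h later. None of the 10 genes passed in limma, with or without the letter block, and 0% of all tested probe sets did in either fit. At an unadjusted p under 0.05, 214 of 18625 probe sets were counted without the block and 730 with it. The log2 differences of the 10 genes lay between -0.59 and 0.21. Gpx1 had the most negative difference, -0.59 ± 0.22 (SE; unadjusted p = 0.0267 in limma, adjusted p = 1.00), and was the only member with an unadjusted p under 0.05. Hmox1 followed with -0.42 ± 0.27.

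Within each training the same genes had the largest differences. After unpaired training the log2 difference between epileptogenic and control arrays was 1.88 ± 0.39 (SE) for Hmox1 and 1.28 ± 0.32 for Gpx1. After paired training it was 1.40 ± 0.39 for Hmox1 and 1.03 ± 0.32 for Gpx1. None of the 10 genes passed in these comparisons of 2 with 2 arrays (lowest limma adjusted p = 0.0945 and 0.206), where 0.29% and 0.521% of all probe sets were higher. With the letter block Hmox1 (adjusted p = 0.0145) and Gpx1 (adjusted p = 0.0160) passed after unpaired training, where 3.4% of all probe sets were higher. Gpx1 alone passed after paired training (adjusted p = 0.0419 with the block; Hmox1 adjusted p = 0.0516), where 3.45% were higher. The test of the difference between the trainings, the interaction, was passed by 0 of the 10 genes and by 0% of all probe sets with and without the block (274 and, with the block, 1056 at an unadjusted p under 0.05). It was -0.48 ± 0.55 (SE) for Hmox1 and -0.24 ± 0.45 for Gpx1 on the log2 scale, and at most 0.45 (Cat) in the other direction.

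Other genes of the same pathways were read from lists of enzymes and regulators, with the probe set of highest signal for each gene. The counts of these lists stand beside 2.81% of all tested probe sets higher and 0.827% lower. With the block these shares were 7.58% and 8.65%. Among regulators of Nrf2, only Nfe2l2 itself was higher past the threshold, as 1 of 8 tested genes. Its log2 signal was 7.51 to 8.10 in control and 8.92 to 9.66 in epileptogenic arrays, a difference of 1.47 ± 0.23 (SE; limma adjusted p = 0.0112). The call was lost without control paired A (1.37, adjusted p = 0.0545) and without epileptogenic unpaired B (1.35, adjusted p = 0.0517), and kept in the other 16 of 18 alternatives. Keap1, its inhibitor, had a log2 difference of 0.05 ± 0.20. The median of the Nrf2 regulators was -0.21, beside -0.11 for all tested probe sets.

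Of 18 tested genes of glutathione metabolism, Mgst1 alone passed, with a log2 difference of 1.78 ± 0.27 (SE; limma adjusted p = 0.0100), and it also passed in all 18 alternatives. It encodes a membrane-bound glutathione transferase. The list median was 0.36, and with the block 3 were higher and 2 lower. Mgst2, at a control mean of 4.01, passed the filter only through the epileptogenic arrays, and the median without it was 0.29. Of 13 genes of thioredoxins and peroxiredoxins, Txnip alone passed, with a log2 difference of 1.46 ± 0.26 (adjusted p = 0.0190 in limma; past the threshold in 12 of 18 alternatives). Its call was lost without control unpaired A, control paired A, epileptogenic unpaired B or epileptogenic paired A, where the log2 difference was 1.25 to 1.39. Txnip encodes the protein that binds and inhibits thioredoxin, so its role is opposed to that of Txn1. The list median was 0.16, and with the block 2 were higher.

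Of 11 tested genes of haem and iron handling, Cp alone passed, with a log2 difference of 1.88 ± 0.36 (SE; limma adjusted p = 0.0248; past the threshold in 10 of 18 alternatives). With single arrays left out its call was kept only without control paired B, epileptogenic unpaired A or epileptogenic paired A, and the log2 difference ran from 1.52 to 2.23. Cp encodes ceruloplasmin, a copper protein that oxidises iron. The constitutive haem oxygenase gene Hmox2 had a log2 difference of -0.15 ± 0.27, and the biliverdin reductase genes Blvra and Blvrb had -0.24 ± 0.42 and -0.27 ± 0.28; these 3 did not pass. The list median was 0.08. With the block 2 genes were higher and 1 lower, beside 7.58% and 8.65% of all tested probe sets. Flvcr1 was higher beside Cp (0.88 ± 0.22, adjusted p = 0.0675, 0.00896 with the block, in limma). Tfrc was lower (-0.57 ± 0.18, adjusted p = 0.135, 0.0251 with the block, in limma). Cd163, which encodes the haemoglobin scavenger receptor of macrophages, had a mean under the filter level and was not tested.

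Of 5 tested genes of superoxide removal and metal binding none passed in limma (3 higher with the block; median 0.57). The metallothionein gene Mt2A had a log2 difference of 2.25 ± 0.60 (SE; adjusted p = 0.0799) and the selenoprotein gene Selenop 0.57 ± 0.17 (adjusted p = 0.107). None of 6 genes that supply NADPH passed either (2 higher with the block; median 0.26), with Nnt at 0.82 ± 0.21 (adjusted p = 0.0736 in limma) and Taldo1 at 0.47 ± 0.19 (adjusted p = 0.213). Of 7 tested genes whose products form oxidants, Cyba and Rac2 rose, by 1.74 ± 0.26 (limma adjusted p = 0.00855) and 1.63 ± 0.30 (adjusted p = 0.0205). Both belong to the NADPH oxidase of phagocytes. Cyba passed in all 18 alternatives and Rac2 in 11. With single arrays left out Rac2 kept its call only without control unpaired A or control paired A, and its log2 difference ran from 1.38 to 1.89. With the block 4 of the 7 were higher, as Cybb (1.53 ± 0.41, adjusted p = 0.0813, 0.00254 with the block, in limma) and Maob (0.72 ± 0.17, adjusted p = 0.0514, 0.00411 with the block) passed too. The list median was 0.72.

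**Figure D3:**
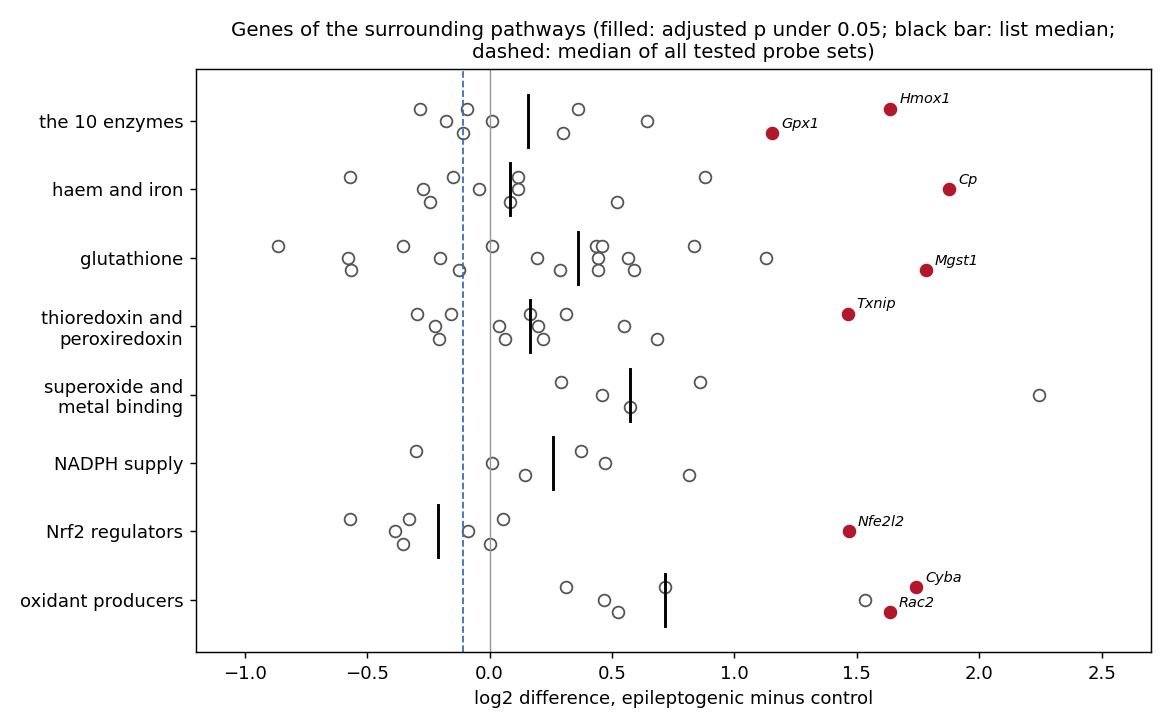
Log2 difference between epileptogenic and control arrays (horizontal axis) for every tested gene of the 10 enzymes and of 7 pathway lists; filled points with names passed at an adjusted p under 0.05 in limma, black bars are list medians and the dashed line is the median of all tested probe sets. In each list at most 2 genes passed, and the list medians lie between -0.21 and 0.72.

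Several lists of cell type markers differed between the same groups. Beside their counts, 2.81% of all tested probe sets were higher and 0.827% lower (7.58% and 8.65% with the block). Of 14 tested markers of microglia and macrophages, 13 rose (median log2 difference 2.05), and Cx3cr1 had -0.40 ± 0.58 (SE). Itgam, also listed, had a mean under the filter level. For Aif1, among the 13, the other tested probe set had a difference of the opposite sign. Cd68, among the 13, had a control mean of 4.12 and passed the filter only through the epileptogenic arrays; without it 12 of 13 rose (median 1.86). The mean of the list, relative to the control mean, was -0.52 to 0.30 in control and 1.83 to 2.34 in epileptogenic arrays (-0.30 to 0.20 and 1.68 to 2.18 without Cd68), highest in epileptogenic unpaired B, where Hmox1 and Gpx1 were highest too. Epileptogenic unpaired A was second of the 4 epileptogenic arrays for the microglial mean (2.01), Hmox1 (6.78) and Gpx1 (9.15). Only the 2 lowest arrays changed places: epileptogenic paired B, lowest for Hmox1 and Gpx1, had a microglial mean of 1.92, above the 1.83 of epileptogenic paired A. This order was not particular to microglia. The endothelial means (0.472, 0.335, 0.328 and 0.223 from highest to lowest) and the NADPH supply means had it too. The haem and iron, thioredoxin and peroxiredoxin, and oxidant producer means had the full order of Hmox1 and Gpx1. The remaining lists, astrocytes and oligodendrocytes among them, had other orders. Of 9 astrocyte markers 3 rose (4 with the block, median 0.36), with means of -0.29 to 0.39 and 0.55 to 0.90. For Aqp4, among the 3, only 1 of the 2 other tested probe sets had a difference of the same sign. Of 8 tested oligodendrocyte markers none passed (3 higher with the block; median 0.59), all 8 differences were positive, and the means were -0.42 to 0.32 and 0.11 to 1.32. Of 8 tested endothelial markers none passed (2 higher with the block; median 0.44), and the means did not overlap (-0.17 to 0.097 and 0.22 to 0.47). Of 6 tested markers of choroid plexus and meninges none passed (2 higher with the block, median 0.95), and 5 of the 6 differences were positive. Their means were -0.56 to 0.72 in control and 0.58 to 1.86 in epileptogenic arrays, again highest in epileptogenic unpaired B. Of 8 tested excitatory neuron markers 3 fell (4 with the block, median -0.91), with means of -0.09 to 0.08 and -1.11 to -0.69. That list includes Rbfox3 and Snap25, which mark neurons in general. Of 7 tested inhibitory neuron markers 1 fell, with or without the block (median -0.24), and of 8 tested striatal and central amygdala markers none passed in either fit (median -0.14). Among blood markers Hbb, the haemoglobin beta chain gene, had -1.02 ± 0.53 and did not pass, and 4 others with a probe set had means under the filter level. The part of these cell types in the values of Hmox1, Gpx1 and Nqo1 was not tested.

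**Figure D4:**
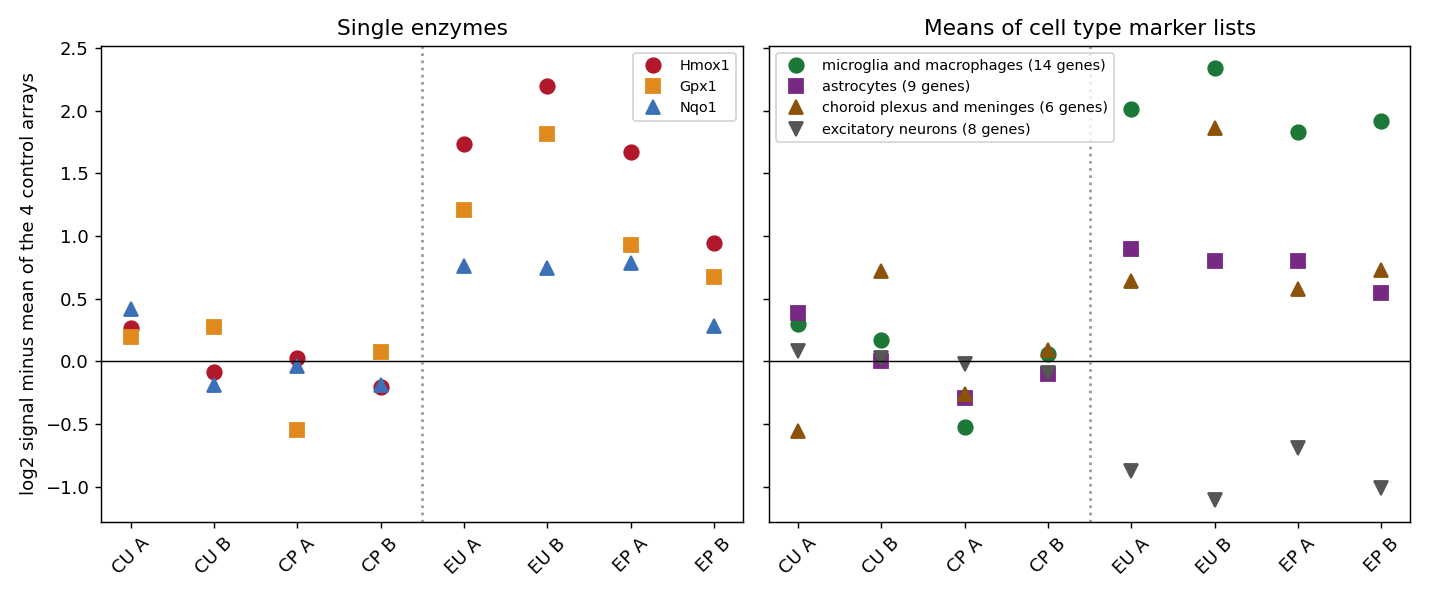
Log2 signal minus the mean of the 4 control arrays (vertical axis) on each of the 8 arrays, for Hmox1, Gpx1 and Nqo1 (left) and for the mean of 4 lists of cell type markers (right); the dotted line separates control from epileptogenic arrays. The microglial mean is 1.83 to 2.34 in epileptogenic arrays and at most 0.30 in control arrays. Epileptogenic unpaired B is the highest array for Hmox1, Gpx1, the microglial mean and the mean of choroid plexus and meninges.

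The genes whose log2 signal followed the enzymes most closely over the 8 arrays were found by Pearson correlation among 10354 other tested genes. All 8 points share the split into epileptogenic and control arrays, so the correlations describe these arrays only. For Hmox1 they were C1qc (r = 0.992), a complement subunit gene of microglia, Ctsb (0.990), which encodes the lysosomal protease cathepsin B, Igsf6 (0.986; its control mean of 3.47 was under the filter level), Atp10d (0.985) and Eef1d (0.984). For Gpx1 they were Col1a2 (0.980), which encodes a chain of fibrillar collagen, Sft2d2 (0.977), Iqgap1 (0.973), Spata6 (0.971) and Bcar3 (0.966). The lists of 5 had no gene in common. C1qc, Ctsb and Sft2d2 passed in the comparison of epileptogenic with control arrays, with log2 differences of 2.24 ± 0.26, 1.21 ± 0.21 and 1.18 ± 0.24 (SE; limma adjusted p = 0.00348, 0.0159 and 0.0297), and the other 7 did not.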

How the data were processed

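Per the labels, the authors deposited 1 MAS5 signal intensity per probe set and array (Affymetrix Rat Genome 230 2.0) on a linear scale; the version and scaling target are not given in the sources used here. RNA (30 ng per rat) went through 2 rounds of amplification, which favour the 3′ end. Signals were transformed to log2 with no offset. After 57 control probe sets were left out, limma 3.58.1 (R 4.3.3) was run on probe sets whose mean exceeded the 40th percentile (4 group means, intensity trend, two-sided moderated tests, Benjamini-Hochberg over 18625). The fit was tested on simulated data. Symbols come from GEO's platform annotation, updated through RefSeq (20826 probe sets with 1 symbol, 436 with several, 9780 with none). SD is between arrays and SE from the fit. Genes named are all members, up to 3 passing genes per pathway list and direction (otherwise the 2 with the smallest p) and the 5 genes most correlated with each passing member. Keap1, Hmox2, Blvra, Blvrb, Flvcr1, Tfrc, Cd163, Cx3cr1, Itgam, Cd68, Aif1, Aqp4, Mgst2, Cybb, Maob, Hbb and Mt1 fall outside this rule. They were chosen after their values were seen. Rbfox3 and Snap25 also fall outside it and are named for the cells they mark. Members and lists were chosen with earlier results of these data known.

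The letters were checked as a pairing: over the 6 pairs of groups, deviations from the group mean correlated by 0.321 to 0.407 for arrays of one letter, so the block with the letter is given where it changes a member's call or a list's count. What A and B stand for is not given in the labels. The fit was repeated with the block, within single letters, without each array in turn, with no trend, with no filter or one at the 60th percentile, after quantile normalization or median centring, with 16 added to the signal, and with probe sets averaged per gene. Added after the data were seen, lists were also summarised without genes whose control mean was under the filter level.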

Additional observations from a re-analysis of the deposited data

Results flagged for a closer look

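Nqo1 was low in epileptogenic paired B, at a log2 signal of 6.87, while the other 3 epileptogenic arrays lay between 7.34 and 7.38. Its gap to the nearest array, as a share of the range of the 4 epileptogenic arrays, exceeded Dixon's 95% critical value. Chance flags about 1 in 20 groups, and 20 groups of 4 arrays were examined. The same array was the lowest of the 4 for Hmox1 (5.99) and Gpx1 (8.61), but not for Cat (8.41, the highest).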

How the results depend on the processing

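Single genes gave 608 values under the alternatives, with the comparisons within each training left out. Of these values, 523 kept their direction and their side of the threshold, 50 changed sign, 34 lost a call and 1 gained it (Nqo1 with the replicate block). The cause of these changes was not tested. The number of probe sets past the threshold in epileptogenic against control arrays was 677 (77.3% higher). It was 389 with median centring (96.9% higher), 330 with no intensity trend, 3022 with the replicate block (46.7% higher), 1321 within letter B and 224 to 435 with single arrays left out. Median centring moved the median log2 difference of all probe sets from -0.11 to -0.0050, and Hmox1 then stood at 1.74 (adjusted p = 0.0117; range over alternatives 0.00240 to 0.0779). Where only 1 member gene passed between epileptogenic and control arrays of both trainings, the gene was Hmox1. The number of member genes past the threshold was 2. It was 1 with median centring, with no trend and within letter B, and 0 to 2 with single arrays left out. After unpaired training 59 probe sets passed, against 98 with quantile normalization, 103 with the stricter filter, 0 with median centring or no trend, 1306 with the replicate block and 0 to 34 with single arrays left out. After paired training 99 passed, against 0 with median centring or no trend, 860 with the block and 0 to 74 with single arrays left out. With the block 2 and 1 member genes passed in these comparisons, against 0. The block changed no other call of the 10 enzymes.

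Signs turned only in values that passed in no fit. Between epileptogenic and control arrays Gclc was 0.011 with median centring and 0.047 within letter B, Sod2 0.36 and Gclm 0.15 within letter A, and Txn1 -0.11 within letter B. With single arrays left out Gclc ran from -0.22 to 0.029, Sod2 from -0.29 to 0.070 and Txn1 from -0.18 to 0.20. In paired against unpaired training Sod1 was 0.080 with median centring. With single arrays left out Sod1 ran from -0.094 to 0.072, Sod2 from -0.046 to 0.31, Txn1 from -0.35 to 0.036, Prdx6 from -0.20 to 0.43 and Gclc from -0.22 to 0.026. In the interaction, quantile normalization gave -0.00076 for Nqo1 and -0.12 for Txn1. Median centring gave -0.16 for Nqo1, -0.13 for Sod2, -0.034 for Gclc and -0.078 for Txn1, and the mean of both probe sets gave -1.61 for Gclc. With single arrays left out it ran from -0.30 to 0.31 for Nqo1, -0.11 to 0.38 for Gclc, -0.40 to 0.29 for Gclm, -0.32 to 0.40 for Sod2, -0.29 to 0.47 for Txn1, -0.55 to 0.070 for Gpx1 and -0.25 to 1.00 for Prdx6.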

Other observations

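A metallothionein gene, Mt1, chosen after its values were seen, was not tested because its mean over the 8 arrays lay under the filter level. Its log2 signal was 0.82 to 1.59 in control arrays and 4.12 to 4.81 in epileptogenic arrays, so the groups did not overlap. Every epileptogenic array also lay above every control array for 7.29% of tested probe sets. All control values of Mt1 lay under the filter level, so the size of its gap rests on signals too low to be tested. Metallothioneins bind zinc and copper and scavenge oxidants. The related Mt2A was brighter, at 4.69 to 8.00 in control and 7.91 to 9.82 in epileptogenic arrays, where 1 control array reached into the epileptogenic range.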
